A study of Mus musculus with 4 samples.

Results

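The genes described here are sterol-regulated enzymes of cholesterol synthesis, listed by name as *Hmgcs1*, *Idi1*, *Fdps*, *Fdft1*, *Sqle*, *Lss*, *Cyp51* and *Dhcr7*. They were found by translating the Ensembl identifiers of a raw count table into symbols with the GENCODE vM1 annotation, and 7 of the 8 were matched among 37310 genes. RNA-seq was carried out on 4 libraries of mouse embryonic stem cells (mESCs) from the HATX line, 2 labelled HATX WT and 2 labelled *Spen* KO clone 2. Both groups share a doxycycline-inducible *Xist* transgene, serum and LIF medium, gelatin-coated plates and what the labels call a mixed background, and no treatment is stated for either. The study describes the cells as haploid and the knockout as a deletion of *Spen*, the gene of an RNA-binding co-repressor that *Xist* needs to silence the X chromosome. Each group is a single line, the KO-labelled cells being 1 clone, so that clone and genotype cannot be told apart. Nothing states that the libraries of a group came from separate cultures, and p-values measure only the spread between these libraries.

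Cholesterol is built from acetyl-CoA through mevalonate, isoprenoid diphosphates, squalene and lanosterol. When sterols in the endoplasmic reticulum are low, Scap carries the SREBP transcription factors to the Golgi, where they are cleaved and released to the nucleus. There they raise transcription of nearly every enzyme of the route and of genes of sterol uptake, and Insig proteins hold Scap back when sterols are plentiful. SREBP2, the product of *Srebf2*, is best known for the cholesterol genes, and it acts on promoters together with NF-Y and Sp1. Dividing cells, stem cells among them, need the route for new membrane, and its isoprenoid intermediates also supply protein prenylation, dolichol and ubiquinone.

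Promoter windows from 250 bases before to 50 after a RefSeq transcript start (build GRCm38.p6) were matched for 5 of the 8 genes, *Hmgcs1*, *Idi1*, *Lss*, *Cyp51* and *Dhcr7*. *Sqle*, *Fdps* and *Fdft1* had none in that table. The 250 bases before the start are printed 5′ to 3′ in the direction of transcription, because the listed genes are grouped by a shared regulator that acts there. Capitals mark the sterol regulatory element pattern TCACNCCAC and the NF-Y box CCAAT, read on either strand, so that ATTGG is an NF-Y box on the opposite strand. *Hmgcs1* is at chr13:119690101-119690350 on the plus strand, *Idi1* at chr13:8885356-8885605 (plus), *Lss* at chr10:76531355-76531604 (plus) and *Cyp51* at chr5:4104698-4104947 (minus). *Dhcr7* has 3 windows, and the one shown, at chr7:143829964-143830213 (plus), is the only one of them with an NF-Y box.
Hmgcs1: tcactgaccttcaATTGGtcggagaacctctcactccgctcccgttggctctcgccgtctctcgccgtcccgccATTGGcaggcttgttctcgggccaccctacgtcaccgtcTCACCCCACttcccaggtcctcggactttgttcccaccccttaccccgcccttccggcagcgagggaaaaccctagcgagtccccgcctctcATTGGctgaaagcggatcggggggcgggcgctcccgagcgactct
Idi1: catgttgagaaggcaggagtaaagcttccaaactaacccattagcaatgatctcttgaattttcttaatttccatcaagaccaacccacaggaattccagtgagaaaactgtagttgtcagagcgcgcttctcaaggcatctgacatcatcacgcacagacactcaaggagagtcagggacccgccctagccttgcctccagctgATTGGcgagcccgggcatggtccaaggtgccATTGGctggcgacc
Lss: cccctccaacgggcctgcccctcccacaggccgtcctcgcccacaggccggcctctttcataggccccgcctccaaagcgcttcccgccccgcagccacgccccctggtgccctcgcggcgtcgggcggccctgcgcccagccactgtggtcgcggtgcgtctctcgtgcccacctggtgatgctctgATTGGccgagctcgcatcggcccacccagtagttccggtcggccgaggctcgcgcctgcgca
Cyp51: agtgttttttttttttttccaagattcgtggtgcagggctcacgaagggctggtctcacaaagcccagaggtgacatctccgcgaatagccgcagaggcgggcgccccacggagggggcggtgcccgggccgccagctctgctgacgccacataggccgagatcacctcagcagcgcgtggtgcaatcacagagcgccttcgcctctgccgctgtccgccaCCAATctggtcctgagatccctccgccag
Dhcr7: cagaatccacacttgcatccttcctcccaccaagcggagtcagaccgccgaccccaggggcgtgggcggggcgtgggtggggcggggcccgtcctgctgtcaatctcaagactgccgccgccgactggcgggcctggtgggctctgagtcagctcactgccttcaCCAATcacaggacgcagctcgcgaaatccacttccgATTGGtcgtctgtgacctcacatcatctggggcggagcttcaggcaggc

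All 5 genes with a window held at least 1 NF-Y box and at least 1 Sp1 box, searched as GGGCGG. The same letters occurred in 41.1% and 38.2% of the 27025 genes with a window. A sterol regulatory element in this spelling was found in 1 of the 5, *Hmgcs1*, at position -137 from the start on the plus strand, and in 1.44% of all genes. The E-box CACGTG was found in 1 of the 5, *Dhcr7*, against 8.09% of all genes. No matches in these windows overlapped each other. In the windows of *Hmgcs1* and *Idi1* an NF-Y box began at position -45 in each, and *Dhcr7* had one at -49 and *Lss* one at -62. Among the other lists described below, 10 of 11 further cholesterol enzymes with a window had an NF-Y box and 0 of 11 the sterol element. In the uptake list 7 of 8 had an NF-Y box and 1 of 8, *Stard3*, the sterol element. The NF-Y box was in 6 of 12 sensing, 3 of 8 efflux, 7 of 11 fatty acid and 7 of 14 non-sterol genes, and the sterol element in none of these. The letters are a description of sequence and carry no measurement of binding.

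**Figure D1:**
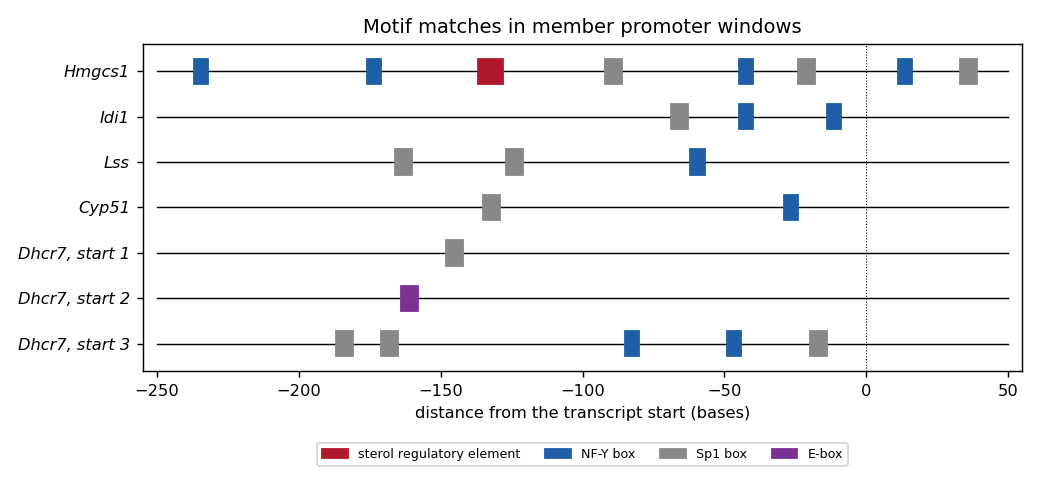
Motif matches in the promoter windows of 5 sterol synthesis genes, drawn against the distance from the transcript start in bases (250 before to 50 after), with *Dhcr7* on a line for each of its 3 starts. Coloured boxes are matches on either strand. *Hmgcs1* holds the only sterol regulatory element, and the NF-Y boxes of *Idi1*, *Lss*, *Cyp51* and the third *Dhcr7* start lie within 100 bases before the start.

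The total counts per library were 36667685 and 43835004 for WT and 54715889 and 61908422 for the KO-labelled libraries, with 21850 to 22591 genes detected. *Spen* itself had 3716 and 3047 normalized counts in WT and 7797 and 6242 in the KO-labelled libraries (log2 fold change 1.05 ± 0.21, SE). Counts over the whole gene were higher where the label says knockout and do not resolve which exons were read, so they do not check the label, and the group is called KO-labelled. Summed over 8 mESC markers, normalized counts were 227225 and 221982 in WT and 229761 and 240985 in the KO-labelled libraries, with *Zfp42* and *Dppa5a* called higher. *Zfp42* missed the threshold without any 1 library (adjusted p of 0.118 to 0.167), and both missed it with chromosome medians removed (0.255 and 0.0834). The 8 primitive endoderm markers summed to 496 and 553 against 273 and 224, with *Gata4* and *Sox7* lower and *Ttr* at 0 in all 4 libraries. Most of that sum was *Gata4*, *Sox7* and *Dab2*. Of the 8, 4 were tested and all 4 lay below 0, and *Dab2* (-0.76) and *Gata6* (-0.27) did not pass. The *Gata4* call was lost without WT replicate 2 (adjusted p = 0.159) or KO-labelled replicate 2 (adjusted p = 0.0666). The 8 fibroblast markers summed to 215 and 220 against 435 and 509, with *Thy1* higher and no marker at 0 in all libraries. Most of that sum was *Thy1* (118 and 137 against 356 and 414). Of the 5 fibroblast markers tested 2 had a log2 fold change above 0 and 3 below, *Col1a2* (-1.19), *Pdgfra* (-0.91) and *Col3a1* (-0.25), none of which passed, and the median was -0.248. The part of these cells in the results below was not tested. In bulk RNA, fewer cells of a type and less RNA per cell cannot be told apart.

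Squalene epoxidase (*Sqle*), lanosterol synthase (*Lss*) and the reductase *Dhcr7* had lower RNA in the KO-labelled cells. *Sqle* fell by 22.2%, *Dhcr7* fell by 20.1% and *Lss* fell by 17.5%, while *Idi1*, *Fdps*, *Fdft1* and *Cyp51* stayed within 7.37% of their WT mean and did not pass. Thus 3 of the 7 measured genes were lower and 0 higher at a DESeq2 adjusted p under 0.05. Over all 17710 genes tested, 32.3% were called by the same rule, 15.8% lower and 16.4% higher. In the 4592 genes whose mean counts lay within the range of these 7, 18.9% were lower and 28.2% higher. At the fold of at least 2 and adjusted p under 0.001 that the study used, 0 of the 7 were called, against 4.51% of all genes, 3.15% lower and 1.36% higher. The median log2 fold change (KO-labelled over WT) of the 7 was -0.088, and that of all genes tested 0.005. The former was -0.048 without WT replicate 1, -0.144 without KO-labelled replicate 2, -0.05 with upper-quartile scaling and -0.145 with chromosome medians removed. Each call was repeated under 12 other settings, among them leaving out each library in turn. The count of lower genes was 1 whichever library was left out, *Sqle* each time.

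*Hmgcs1* encodes the synthase that makes HMG-CoA on the way to mevalonate. Its 300-base RefSeq window matched at full length and 100% identity on 2 unplaced contigs of the mm9 assembly used by the study, and the GENCODE vM1 annotation placed 0 genes on the 189 unplaced contigs. *Hmgcs1* was therefore not analysed here, and the gene with the sterol element has no count beside it.

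*Idi1* (ENSMUSG00000058258.6, chromosome 13, 8884852 to 8891641, plus strand, mm9) encodes the isomerase that balances the isoprenoid building blocks. Its normalized counts were 1236 and 1227 in WT and 1322 and 1277 in the KO-labelled libraries. Both KO-labelled libraries lay above WT by a narrow margin, and the log2 fold change of 0.08 ± 0.11 (SE) had an adjusted p of 0.664. The 95% interval of the difference ran from -0.14 to 0.29. *Fdps* (ENSMUSG00000059743.7, chromosome 3, 88897514 to 88905881, minus strand) encodes farnesyl diphosphate synthase, whose product feeds both sterols and prenylation. It had 5335 and 5098 normalized counts in WT and 5068 and 4768 in the KO-labelled ones. The higher KO-labelled library was just under the lower WT library, and the log2 difference was -0.08 ± 0.08 (interval -0.24 to 0.07, adjusted p = 0.47). *Fdft1* (ENSMUSG00000021273.9, chromosome 14, 63763990 to 63796630, minus strand) encodes squalene synthase, the first enzyme committed to sterols. Values of 5806 and 6161 in WT and 6235 and 6616 in the KO-labelled libraries did not overlap, and the difference of 0.10 ± 0.08 on the log2 scale (interval -0.05 to 0.25) did not pass (adjusted p = 0.346).

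Counts of these upstream genes are less certain than those of the later ones, since the handling of reads with several matches is not stated. Sequence with a near-identical copy elsewhere in mm9 (at least 95% identity over at least 75 bases) covered 96.4% of the exonic bases of *Fdps*, 86.6% of *Idi1* and 56.3% of *Fdft1*. In *Sqle* it covered 4.0%, in *Dhcr7* 2.43%, in *Lss* 0.769% and in *Cyp51* 0.00%. The annotated pseudogenes in those copies held few counts, and copies outside any annotated gene (2 of *Idi1* and 1 of *Fdps*) have no counts to read. *Gm13502*, 1 of 3 copies of *Idi1*, had 32 and 28 counts in WT and 66 and 50 in the KO-labelled libraries. *Gm3571*, a copy of *Fdps*, had 12, 18, 18 and 14 in the same order, and *Gm6781*, the copy of *Fdft1*, had 3, 2, 8 and 10. *Fdft1* also shares 769 exonic bases with *Ctsb* on the other strand, and the strand setting of the counting is not stated. Over the 4 genes with few copied bases, a choice made after seeing the data, the median was -0.300 on the log2 scale. Of these 3 were lower, again *Sqle*, *Lss* and *Dhcr7*, and none higher, beside 15.8% and 16.4% of all genes tested.

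*Sqle* (ENSMUSG00000022351.8, chromosome 15, 59146632 to 59162747, plus strand) encodes squalene epoxidase, an oxygen-dependent step often called the second rate-limiting one. In WT its normalized counts were 7182 and 6958, against 5437 and 5563 in the KO-labelled libraries, with no overlap and a gap several times the spread of either group. The means of 7070 ± 159 and 5500 ± 89.3 (SD, n = 2) gave a log2 difference of -0.36 ± 0.07 (SE, interval -0.51 to -0.22, DESeq2 adjusted p = 7.21e-06). This gene passed in all 12 other settings, at -0.43 to -0.32 on the log2 scale and with an adjusted p of at most 0.0101. The 10 tested genes nearest to it on chromosome 15 had a median of 0.01, and the chromosome's median was 0.07.

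*Lss* (ENSMUSG00000033105.6, chromosome 10, 75994333 to 76019883, plus strand) encodes lanosterol synthase, which folds oxidosqualene into the first sterol. Normalized counts were 3275 and 3233 in WT and 2683 and 2689 in the KO-labelled ones. The groups were apart by far more than the distance between replicates, with means of 3254 ± 29.4 and 2686 ± 4.32 (SD, n = 2). On the log2 scale the difference was -0.28 ± 0.08 (interval -0.44 to -0.11, adjusted p = 0.00491). Chromosome 10 as a whole had a median of -0.35, and the 10 nearest tested genes a median of -0.43, 6 of them lower and 0 higher. With chromosome medians removed, the value for *Lss* was 0.07 (adjusted p = 0.626). The call was also lost without any 1 library, at an adjusted p of 0.0889 without WT replicate 2 and 0.107 to 0.112 without the others. A lincRNA, *4930483K19Rik*, covers 381 of its exonic bases on the other strand.

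*Cyp51* (ENSMUSG00000001467.4, chromosome 5, 4081145 to 4104746, minus strand) encodes the demethylase that acts on lanosterol. Counts of 4437 and 4176 in WT and 3888 and 4216 in the KO-labelled libraries overlapped. The difference was -0.09 ± 0.08 on the log2 scale (interval -0.25 to 0.08, adjusted p = 0.488), and no bases of the gene had a copy elsewhere. *Dhcr7* (ENSMUSG00000058454.8, chromosome 7, 151009050 to 151034315, plus strand) encodes the reductase that turns dehydrocholesterol into cholesterol, and its loss causes Smith-Lemli-Opitz syndrome in people. The values were 2192 and 2237 in WT and 1750 and 1787 in the KO-labelled libraries, again with no overlap. The means of 2214 ± 32.0 and 1769 ± 26.3 (SD, n = 2) gave a log2 fold change of -0.32 ± 0.09 (interval -0.51 to -0.14, adjusted p = 0.00321). Chromosome 7 had a median of 0.09 and the nearest 10 genes one of -0.08, and with chromosome medians removed *Dhcr7* was at -0.42 (adjusted p = 9.81e-05). Leaving out 1 library ended this call too, with adjusted p of 0.0657 without WT replicate 1, 0.11 without WT replicate 2 or KO-labelled replicate 1, and 0.0731 without KO-labelled replicate 2.

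**Figure D2:**
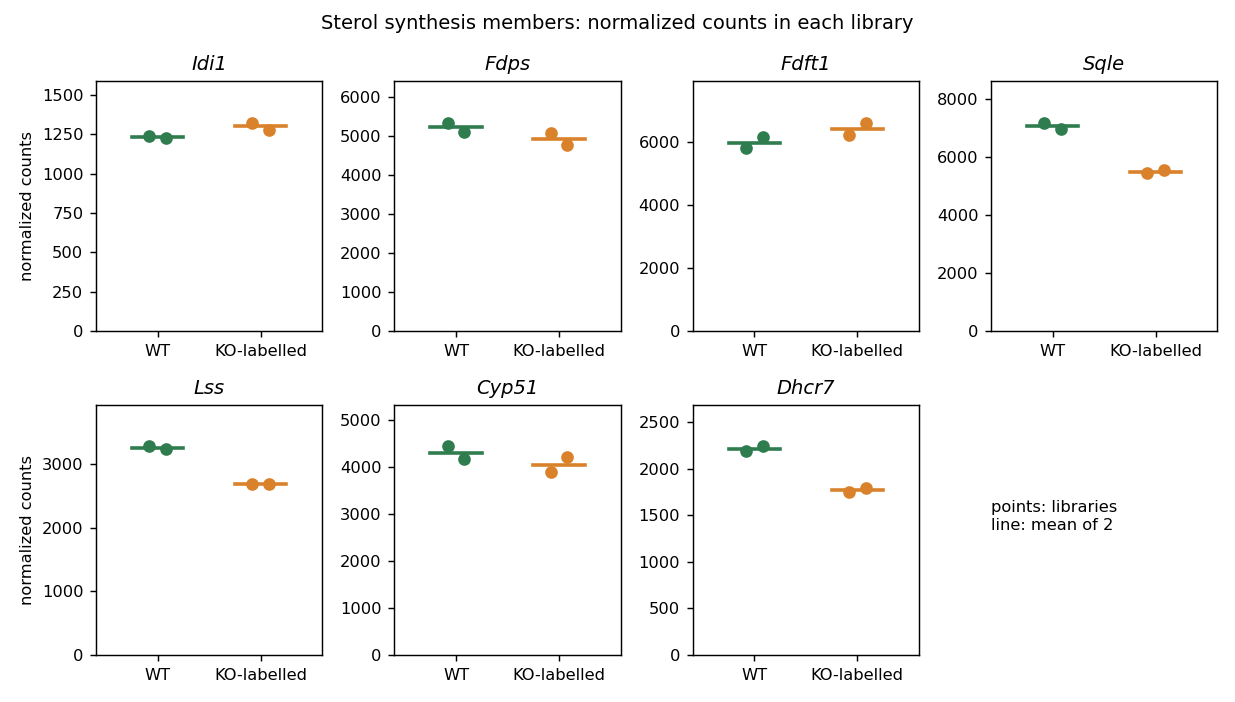
Normalized counts of the 7 measured genes, in pathway order, with 1 panel a gene and a linear axis from 0. Points are libraries (2 WT, 2 KO-labelled) and lines are group means. *Sqle*, *Lss* and *Dhcr7* show both KO-labelled points well under both WT points, and the points of *Cyp51* overlap.

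Both KO-labelled libraries lay under both WT libraries in 4 of the 7 genes (*Fdps*, *Sqle*, *Lss*, *Dhcr7*) and above them in 2 (*Idi1*, *Fdft1*). Over all tested genes those shares were 34.8% and 35.4%. Ratios of raw counts within a library do not depend on scaling. The ratio of *Sqle* to *Fdft1*, the enzyme just before it, was 1.24 and 1.13 in WT and 0.872 and 0.841 in the KO-labelled libraries, lower in both. *Lss* to *Fdft1* went from 0.564 and 0.525 to 0.430 and 0.406. *Sqle* to *Cyp51* was 1.62 and 1.67 in WT and 1.40 and 1.32 in the KO-labelled libraries, and *Dhcr7* to *Cyp51* 0.494 and 0.536 against 0.450 and 0.424. Among the earlier enzymes, *Fdps* to *Idi1* was 4.32 and 4.15 in WT and 3.83 and 3.73 in the KO-labelled ones. The ratio of *Dhcr7* to *Lss* was 0.669 and 0.692 against 0.652 and 0.665. Each of these ratios was lower in both KO-labelled libraries than in both WT libraries, that of *Dhcr7* to *Lss* by a narrow margin (0.665 against 0.669). The pairs were picked by hand and reuse the same genes, so they restate the differences of single genes. Inverting a ratio turns its direction, and the share of all gene pairs without overlap was not computed.

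Per kilobase of exon, the levels in WT ran from *Fdps* at 4231 ± 136 normalized counts per kilobase (SD, n = 2) through *Fdft1* at 2092, *Sqle* at 1275, *Cyp51* at 1005, *Dhcr7* at 585 and *Idi1* at 430 to *Lss* at 302 ± 2.72. No neighbours in this order overlapped among the WT libraries. In the KO-labelled libraries the order of the means by joined exons was the same, at 3989, 2247, 992, 945, 467, 453 and 249. There *Sqle* (980 and 1003) and *Cyp51* (907 and 984) overlapped, and *Dhcr7* (463 and 472) lay next to *Idi1* (446 and 461). The order depends on the length used, because the exons of all transcripts joined are 5546 bases long in *Sqle* and 10787 in *Lss*, and their longest coding transcripts 2758 and 4667. On the latter length, chosen after the data were seen, the WT mean of *Sqle* was 2563 and stood above *Fdft1*, and that of *Lss* was 697 and stood above *Idi1*. In the KO-labelled libraries *Sqle* on that length was at 1994 and stood below *Fdft1* at 2247. The levels of *Fdps*, *Fdft1* and *Idi1* carry the uncertainty of their copies.

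**Figure D3:**
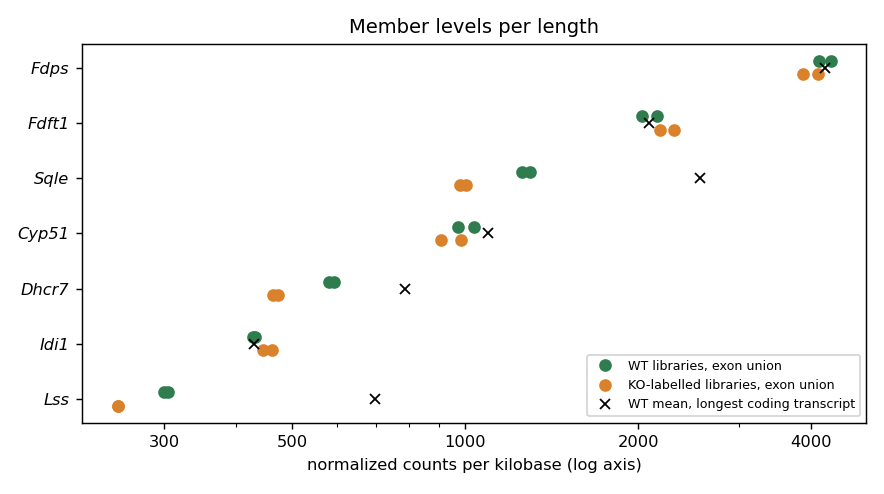
Normalized counts per kilobase (log axis) of the 7 measured genes. Circles are single libraries divided by the joined exon length, and crosses are WT means divided by the longest coding transcript. *Fdps* is at the top and *Lss* at the bottom by joined exons, and the crosses of *Sqle*, *Dhcr7* and *Lss* lie to the right of their circles.

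Centred on each gene's own mean, the average log2 profile of the 7 genes was 0.076 and 0.060 in WT and -0.078 and -0.059 in the KO-labelled libraries. *Fdps* and *Cyp51* were nearest to it, with root mean square differences of 0.0490 and 0.0492, and *Fdft1* was farthest, at 0.1272. Of genes outside every list, *2400003C14Rik*, *Hnrnpm*, *Gm12940*, *Alkbh1* and *Tuba1c* had the nearest profiles over the 4 libraries, with differences of 0.0023 to 0.0067. Their log2 fold changes were -0.14 or -0.13, and none passed the test.

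The rest of the route was read from 11 further enzymes. Of these 1 was higher and 2 were lower, with a median log2 fold change of -0.157. *Tm7sf2*, one of the sterol reductases that follow *Cyp51*, had 276 and 315 against 544 and 538, a rise of 0.87 ± 0.18 (adjusted p = 9.9e-06). On chromosome 19, where it lies, the median was 0.38. With chromosome medians removed *Tm7sf2* was at 0.49 (adjusted p = 0.0277), and 532 of the gene's exonic bases belong also to *1110014N23Rik* on the same strand. *Lbr*, which carries the same reductase activity, had 14095 and 14466 in WT and 13579 and 13175 in the KO-labelled libraries (-0.09, adjusted p = 0.306).

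The calls of the lower enzymes depended on single libraries. *Hsd17b7*, a sterol ketone reductase, was at -0.37 ± 0.14 (790 and 754 against 602 and 589, adjusted p = 0.027) and missed the threshold without any 1 library (0.174 to 0.267). *Msmo1*, the oxidase that removes methyl groups from the ring, was at -0.28 ± 0.09 (3736 and 3529 against 2782 and 3194, adjusted p = 0.0114), and at 0.204, 0.0652 and 0.325 without WT replicate 1, WT replicate 2 and KO-labelled replicate 1. The value of *Msmo1* was -0.18 without KO-labelled replicate 1 and -0.38 without KO-labelled replicate 2. Once chromosome medians were removed *Hsd17b7* and *Msmo1* were at -0.48 (adjusted p = 0.00392) and -0.38 (adjusted p = 0.000361). Across the 18 enzymes of the route described here, 14 log2 fold changes were below 0 and 4 above, 5 genes were lower and 1 higher, and the median was -0.126. Of all genes tested, 8774 of 17710 were below 0, and 15.8% were called lower and 16.4% higher. With a replicate block 1 of the 7 listed genes and 0 of the 11 further enzymes were lower.

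**Figure D4:**
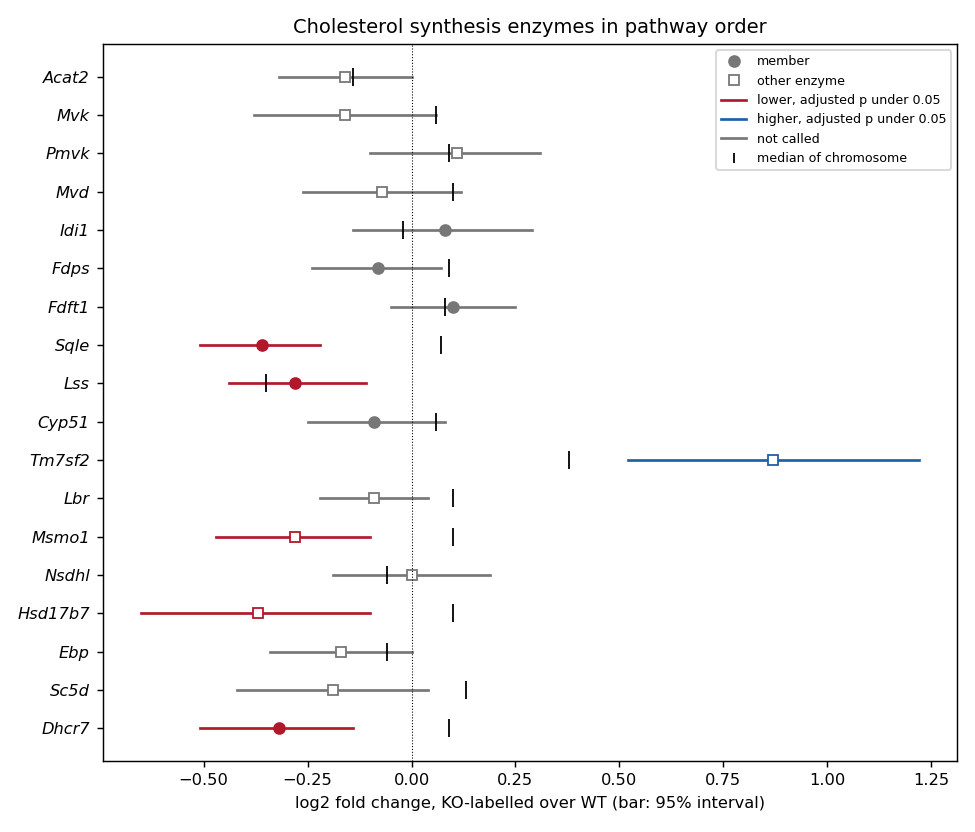
Log2 fold change (KO-labelled over WT) of 18 cholesterol synthesis enzymes in pathway order, with bars for the 95% interval. Filled circles are the 7 listed genes, open squares other enzymes, and vertical ticks the median of each gene's chromosome. *Sqle* and *Dhcr7* lie to the left of their ticks, and *Lss* lies to the right of its tick at -0.35.

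The lists that follow are described by counts, to be read beside the 16.4% of all tested genes that were higher and the 15.8% that were lower. Of the sterol sensing genes 4 of 14 were higher and 2 lower, the latter near the background share. The former are to be read beside the 28.2% higher among tested genes within the count range of the listed genes. With chromosome medians removed, 2 sensing genes were higher and 4 lower. The median of the sensing list was 0.025 (-0.032 with chromosome medians removed, -0.008 without WT replicate 1 and -0.005 without KO-labelled replicate 1). Of the 4 central regulators 1, *Scap*, passed the test. *Srebf2* had 6693 and 7829 in WT and 8093 and 7030 in the KO-labelled libraries (0.06 ± 0.09, adjusted p = 0.708), and *Srebf1* 3928 and 3896 against 3695 and 3747 (-0.07 ± 0.08, adjusted p = 0.554). *Insig1*, itself a sterol-regulated gene, had 5180 and 5021 against 4387 and 4708 (-0.17 ± 0.08, adjusted p = 0.1). *Scap* was lower at -0.27 ± 0.10 (3047 and 2649 against 2469 and 2251, adjusted p = 0.0259), which was lost without WT replicate 1 (0.435), KO-labelled replicate 1 (0.0755) or KO-labelled replicate 2 (0.343). With chromosome medians removed, 3 of these regulators were lower, *Scap* at -0.40 (adjusted p = 0.000493), *Srebf1* at -0.24 (adjusted p = 0.0139) and *Insig1* at -0.22 (adjusted p = 0.0226), and *Srebf2* was at -0.01. By edgeR's quasi-likelihood test *Insig1* was lower too (adjusted p = 0.049), and copies cover 76.7% of its exonic bases. *Scap* shares 985 exonic bases with *5830462I19Rik* on the other strand, and it was at -0.16 without WT replicate 1. By DESeq2 *Scap* also missed the threshold with a replicate block (adjusted p = 0.0929) and with upper-quartile scaling (adjusted p = 0.0643).

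*Insig2*, the Insig gene known for weak control by sterols, rose from 1082 and 1000 to 2149 and 2223 normalized counts, a log2 fold change of 1.07 ± 0.11 (adjusted p = 2.54e-22). It was the only gene of the sensing list past the study's fold and p, and it passed at an adjusted p under 0.05 in all 12 other settings. *Syvn1*, a ubiquitin ligase of the endoplasmic reticulum, had 1006 and 1128 against 1963 and 1736 (0.79 ± 0.12, adjusted p = 2.86e-10). *Erlin1*, a lipid raft protein of the same membrane, had 1396 and 1339 against 2015 and 2114 (0.59 ± 0.10, adjusted p = 7.28e-08). Both lie on chromosome 19, and with chromosome medians removed they were at 0.41 (adjusted p = 0.00316) and 0.21 (adjusted p = 0.112). *Pgrmc1*, which binds heme and Insig, fell from 7903 and 7788 to 5364 and 5324 (-0.55 ± 0.07, adjusted p = 3.07e-13), and copies cover 17.9% of its exonic bases. The ligase *Rnf139* (0.26) was the other higher gene, and it missed the threshold without any 1 library (0.099 to 0.277) and with chromosome medians removed (0.128).

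Of the uptake and trafficking genes 3 of 12 were lower and 2 higher (15.8% and 16.4% over all genes), with a median of -0.211, which was -0.125 without KO-labelled replicate 1 and -0.145 with chromosome medians removed. *Mylip*, a sterol-responsive ubiquitin ligase that acts on lipoprotein receptors, fell from 257 and 240 to 68.8 and 71.2, a log2 fold change of -1.83 ± 0.28 (adjusted p = 1.03e-09). It passed the study's rule and, at an adjusted p under 0.05, all 12 other settings. *Lrp8*, a lipoprotein receptor, had 504 and 600 against 357 and 357 (-0.63 ± 0.17, adjusted p = 0.00156), and the adjusted p was 0.18, 0.0637 and 0.0612 without WT replicate 2, KO-labelled replicate 1 and KO-labelled replicate 2. Removing chromosome medians put *Lrp8* at -0.42 (adjusted p = 0.0535). *Npc2*, which carries cholesterol inside the lysosome, had 3260 and 3295 against 2633 and 2420 (-0.38 ± 0.09, adjusted p = 0.000176), with 0.0591 without KO-labelled replicate 2. Chromosome 12, home of *Npc2*, had a median of -0.32, and with chromosome medians removed *Npc2* was at -0.06 (adjusted p = 0.723). *Osbp*, an oxysterol-binding transfer protein on chromosome 19, rose from 1344 and 1263 to 1683 and 1695 (0.37 ± 0.11, adjusted p = 0.00211), was at -0.01 with chromosome medians removed, and missed without WT replicate 2 (0.103), KO-labelled replicate 1 (0.0668) or KO-labelled replicate 2 (0.0825). The other higher gene was *Npc1* (0.25, with an adjusted p of 0.391, 0.133 and 0.283 without WT replicate 2, KO-labelled replicate 1 and KO-labelled replicate 2, and a value of 0.12 with chromosome medians removed).

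In the list of efflux, storage and oxysterol genes 10 of 12 were tested, 3 were higher and 3 lower, beside 16.4% and 15.8% of all genes, and the median was -0.637. That median includes *Nr1h3* (-1.01), *Cyp27a1* (-0.9) and *Abcg4* (-0.51), which were not called and had at most 50.1 normalized counts in any library. The remaining tested gene that was not called, *Nr1h2*, was at -0.06. *Soat1*, which esterifies cholesterol for storage, had 1671 and 1967 in WT and 902 and 959 in the KO-labelled libraries (-0.97 ± 0.12, adjusted p = 1.89e-14). *Apoe*, the lipoprotein that takes up released cholesterol, had 16818 and 16333 against 9148 and 10326 (-0.77 ± 0.08, adjusted p = 8.26e-22). *Abcg1*, a sterol exporter, rose from 616 and 649 to 1031 and 1035 (0.71 ± 0.13, adjusted p = 8.51e-07). These 3 passed in all 12 other settings. *Cyp7b1*, an oxysterol hydroxylase, had 228 and 266 against 97.5 and 157 (-0.96 ± 0.29, adjusted p = 0.00381), and missed without WT replicate 2 (0.172) or KO-labelled replicate 1 (0.201). *Abca1* (0.28) and *Soat2* (0.69) were the other higher genes, and both missed without any 1 library, at 0.146 to 0.332 and 0.127 to 0.324. Removing chromosome medians put *Abca1* at 0.48 (adjusted p = 0.000194) and *Soat2* at 0.62 (adjusted p = 0.0754). *Ch25h*, which makes an oxysterol that blocks SREBP release, had 0 counts in all libraries.

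The fatty acid and lipid genes that SREBPs also control had 5 of 14 higher, 1 lower and a median of 0.123. Over all genes 16.4% were higher, and 28.2% of those within the count range of the 7 listed genes. *Fasn*, the fatty acid synthase, rose from 38618 and 37410 to 55714 and 50144 normalized counts (0.48 ± 0.07, adjusted p = 2.94e-10), and was at 0.31 (adjusted p = 9.6e-05) with chromosome medians removed. The desaturase *Fads1* had 3230 and 3187 against 5140 and 5202 (0.69 ± 0.08, adjusted p = 7.04e-17), and *Fads2* 2402 and 2439 against 3015 and 3200 (0.36 ± 0.09, adjusted p = 0.000316). Both are on chromosome 19, and with chromosome medians removed they were at 0.31 (adjusted p = 0.000762) and -0.02 (adjusted p = 0.901). *Fads2* also missed without KO-labelled replicate 2 (0.0648). *Lpin1*, a phosphatidate phosphatase on chromosome 12, had 1375 and 1466 against 1018 and 1053 (-0.46 ± 0.11, adjusted p = 0.000371), with 0.0696 without WT replicate 2 and a value of -0.14 (adjusted p = 0.419) with chromosome medians removed. *Scd2* and *Elovl6* were higher, both at 0.32. *Scd2* also lies on chromosome 19 and was at -0.06 (adjusted p = 0.584) with chromosome medians removed, and copies cover 37.6% of the exonic bases of *Elovl6*. With chromosome medians removed the median of this list was -0.10, with 3 higher and 4 lower.

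**Figure D5:**
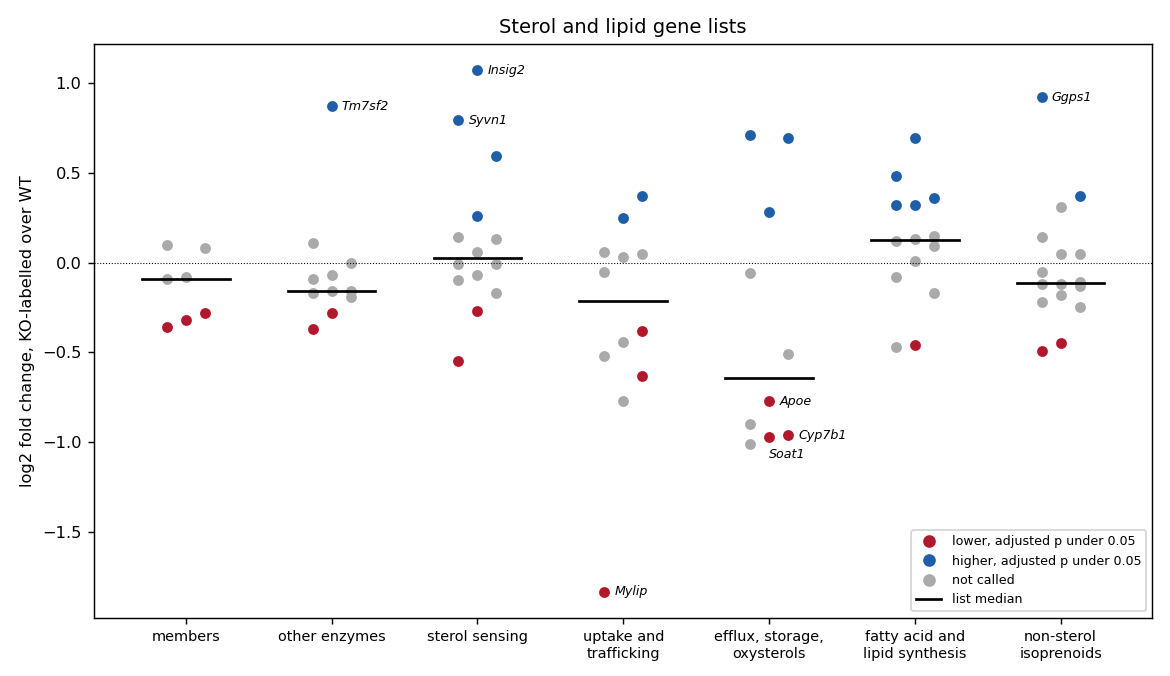
Log2 fold change (KO-labelled over WT) of every tested gene in 7 lists, with a line at each list's median. Red and blue points passed an adjusted p of 0.05, and names mark called genes beyond 0.75 in either direction. The listed genes span -0.36 to 0.10, the narrowest of the 7 lists. The efflux list, which includes uncalled genes of few counts, has the lowest median.

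Non-sterol branches of the isoprenoid route had 2 of 16 higher and 2 lower, no more than the 16.4% and 15.8% of all genes, and a median of -0.115, which was -0.014 with chromosome medians removed and -0.048, -0.064 and -0.051 without WT replicate 1, WT replicate 2 and KO-labelled replicate 1. *Ggps1*, which extends farnesyl diphosphate for protein prenylation, had 1073 and 1158 in WT and 2166 and 2046 in the KO-labelled libraries (0.92 ± 0.11, adjusted p = 2.95e-16), and it passed in all 12 other settings. Its counts are uncertain, since copies cover 58.3% of its exonic bases. *Fntb*, a subunit of farnesyltransferase, fell from 4685 and 4858 to 3372 and 3405 (-0.49 ± 0.08, adjusted p = 7.6e-09), and *Icmt*, which methylates prenylated proteins, from 2516 and 2521 to 1869 and 1816 (-0.45 ± 0.09, adjusted p = 1.03e-05). With chromosome medians removed, *Fntb* was at -0.17 (adjusted p = 0.0879) and *Icmt* at -0.24 (adjusted p = 0.033). *Rce1*, the protease of the same pathway, was at 0.37 ± 0.11 (1376 and 1384 against 1711 and 1862, adjusted p = 0.0022), at -0.01 with chromosome medians removed, and at 0.0578, 0.057 and 0.147 in adjusted p without WT replicate 1, WT replicate 2 and KO-labelled replicate 2. Of the 3 paralogues with roles outside the route, 2 were tested and neither was called, with a median of 0.22.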

How the data were processed

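Paired 75-base stranded, ribosomal RNA-depleted libraries were, per the submitters' processing notes and the study's methods, mapped to mm9 with STAR and assigned to GENCODE vM1 genes with featureCounts. Versions, strand setting and handling of multiple matches were not given in the sources used here, and labels and methods name different instruments. The authors deposited raw counts per gene. All 4 columns were matched to samples by name. Group was the only term of a Wald test over the whole table (DESeq2 1.42.0 under R 4.3.3), with size factors and filtering at their defaults and Benjamini-Hochberg adjustment. Intervals are 95% Wald intervals, and depth limits low genes most in WT. Alternatives included edgeR 4.0.16 (closing section). Copies were sought with BLAST 2.17.0.

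The genes, lists and rules were chosen with earlier results of these data known. Some genes of these lists are not reported here. Named were every listed gene, *Spen*, 4 regulators (*Srebf1*, *Srebf2*, *Scap*, *Insig1*), up to 4 called genes of largest change a list (mean count of at least 50) and the 5 nearest profiles. Others (*Lbr*, *Rnf139*, *Npc1*, *Abca1*, *Soat2*, *Ch25h*, *Nr1h2*, *Nr1h3*, *Cyp27a1*, *Abcg4*, *Scd2*, *Elovl6*, markers, copies) were named after their values were seen.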

Additional observations from a re-analysis of the deposited data

How the results depend on the processing

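With 2 libraries a group, small differences were hard to resolve: the intervals of the 4 listed genes that did not pass reach down to -0.25 and up to 0.29. Without 1 library *Cyp51* ranged from -0.14 to -0.02, *Fdps* from -0.12 to -0.04, *Fdft1* from 0.06 to 0.15 and *Idi1* from 0.06 to 0.11. No pairing of the libraries by replicate number is stated. Same-numbered deviations had a correlation of -0.0177 over 13306 genes, which cannot show that pairing is absent, since counting noise can hide a shared effect. When a replicate block was added, genes called at an adjusted p under 0.05 went from 5714 to 3830, *Lss* was at -0.28 (adjusted p = 0.0707) and *Dhcr7* at -0.32 (adjusted p = 0.051), and 1 of the 7 listed genes was lower. Under the same block 0 further enzymes and 1 sensing gene were lower, 1 efflux gene and 1 uptake gene were higher, and the efflux median was -0.841. The block with the GC and length trend removed put *Lss* at -0.29 (adjusted p = 0.0534) and the medians at -0.114 (listed genes) and -0.852 (efflux), with 1 further enzyme and 1 sensing gene lower and 1 efflux and 0 uptake genes higher. The trend removed alone gave a median of -0.114 for the listed genes, 2 lower fatty acid genes and 5 lower uptake genes.

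Removing chromosome medians turned *Lss* to 0.07 (adjusted p = 0.626), *Fads2* to -0.02, *Rce1* to -0.01, *Osbp* to -0.01 and *Srebf2* to -0.01. It put the medians at -0.145 (listed genes), -0.032 (sensing), -0.145 (uptake), -0.751 (efflux), -0.10 (fatty acid) and -0.014 (non-sterol), with 4 further enzymes lower, 2 sensing genes higher and 4 lower, 0 uptake genes higher, and 3 fatty acid genes higher and 4 lower. Upper-quartile scaling moved the median of all genes with a mean of at least 50 from 0.026 to 0.063, and the list medians to -0.05 (listed genes), -0.119 (further enzymes), 0.063 (sensing), -0.174 (uptake) and 0.16 (fatty acid), with 1 sensing gene lower. The low-count filter and edgeR each gave an efflux median of -0.78 2 lower fatty acid genes and 5 lower uptake genes, and edgeR 4 lower non-sterol genes and 4 lower further enzymes. Over only the genes with under 5% of exonic bases in copies, a choice made after seeing the data, the median of the listed genes was -0.30.

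Without 1 library, *Lss* ranged from -0.28 to -0.26 and *Dhcr7* from -0.34 to -0.30, with an adjusted p above 0.05 each time, and *Srebf2* ranged from -0.05 (without WT replicate 1) to 0.18, with -0.04 without KO-labelled replicate 1. The counts were 1 lower listed gene, 0 to 1 lower further enzymes, 1 to 2 lower sensing genes, 0 to 2 higher and 1 to 3 lower uptake genes, 1 higher efflux gene and 1 to 2 higher non-sterol genes. The medians ranged from -0.144 to -0.048 (listed genes), -0.151 to -0.133 (further enzymes), -0.008 to 0.052 (sensing), -0.221 to -0.125 (uptake), -0.752 to -0.45 (efflux), 0.094 to 0.161 (fatty acid) and -0.133 to -0.048 (non-sterol). TMM scaling left 2 of the 3 higher efflux genes, *Abca1* being the one lost, and ended no call of a gene named by the rule. The causes of these shifts were not tested.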
